A study of Mus musculus with 105 samples.

Results

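MKO livers are labelled as cMet knockout, and the series title places the loss of Met in hepatocytes. The 3 libraries of MKO non-tumour liver at 8 months were compared with the 3 libraries of MKO liver at 1 month across all 12966 genes of the deposited table, so that 6 of the 105 libraries of the series carry the comparison. The libraries were chosen by genotype, age and tissue in the labels, and no measured value was used. All livers used here, the wild type included, were labelled as treated with diethylnitrosamine (DEN), a carcinogen that hepatocytes activate and that produces liver tumours within months. At 8 months non-tumour liver (NT) and tumour (T) were labelled as separate samples of each genotype, and at 1, 3 and 5 months liver was labelled without such a split. The MKO livers at 3 and 5 months and the wild-type (WT) livers of the same ages, all in the same sequencing group and with 3 libraries each, served for intermediate points and for the age difference without loss of Met. The labels used here give no sex, DEN dose, day of injection or Cre driver. They call the samples biological replicates without saying that each came from its own animal. P-values therefore measure spread between samples. That spread was estimated over all 45 libraries of the sequencing group, tumours included, and not over the 6 compared libraries alone. The 45 libraries cover WT, MKO and a further genotype labelled BKO, which is not compared here.

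Met is the receptor tyrosine kinase for hepatocyte growth factor, a ligand that non-parenchymal liver cells secrete. Binding of the ligand recruits adaptors such as Grb2 and Gab1 and activates the ERK, PI3K and STAT3 routes, and in the liver the receptor is known for supporting hepatocyte survival and regrowth after injury. Liver between weaning and adulthood also changes on its own: fetal genes are shut, sex-biased genes follow the growth hormone pattern, and metabolic enzymes reach adult levels.

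Values are given as normalised reads, meaning reads per gene divided by the scaling of the library, and differences are given on the deposited log2 scale, which is variance-stabilised and compresses genes with few reads. Differences were tested with limma, adjusted by Benjamini-Hochberg over all genes, two-sided. Genes with an adjusted p under 0.05 are described as called. The 8-month libraries held 11587217 to 13938314 reads over the genes of the table, and the 1-month libraries 10688346 to 11574827. Met itself had 153, 148 and 164 normalised reads at 8 months, against 202, 212 and 186 at 1 month, a difference of -0.32 ± 0.14 (SE), adjusted p = 0.137. WT livers had 266, 273 and 188 Met reads at 8 months and 195, 249.9 and 251 at 1 month. MKO livers thus kept Met reads in every library, and since the method counts 3′ ends and the deleted exons are not named in the labels, these reads do not check the genotype. Hepatocyte genes were abundant throughout, with Alb, the main plasma protein of the liver, at 414719.7, 481439.6 and 209588 normalised reads at 8 months and 244409, 289692 and 305836 at 1 month. The Y-linked gene Ddx3y was read in all 6 libraries, with 122, 138 and 168 normalised reads at 8 months and 246, 212 and 174 at 1 month.

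One library in each group stood apart. The second 8-month library lay at 53.02 on the first principal component of the MKO and WT non-tumour libraries, against 15.68 and 19.98 for the other 8-month libraries. It correlated with the other 8-month libraries at 0.977, against 0.985 and 0.983 for those, and with the mean of the MKO tumours at 0.973, against 0.951 and 0.946. All 3 8-month MKO libraries were closer to the MKO tumour mean than any of the 9 younger MKO libraries, which correlated with it at 0.917 to 0.942. At 1 month the first library differed from the other 2 in genes of liver maturation and sex bias, given below. Counts are therefore also given without the second 8-month library.

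At 8 months, 927 genes were higher and 781 lower than at 1 month, together 13.2% of the 12966 genes tested (7.15% higher and 6.02% lower). Of these, 123 were at least 2-fold higher and 68 at least 2-fold lower on the deposited scale. Quantile normalisation, which forces every library to 1 distribution, moved the split to 763 higher and 959 lower, or 44.3% higher against 54.3% before it. Without the second 8-month library 418 genes were higher (3.22%) and 317 lower (2.44%), or 5.67% of genes, and without the first or the second 1-month library 893 and 1035 genes were called. When each of the 6 libraries was left out in turn, 452 genes (257 higher and 195 lower) were called in the same direction every time. In WT livers of the same ages 120 genes were higher (0.925%) and 103 lower (0.794%), together 1.72% of genes, and between 37 and 146 genes were called there with any 1 library left out. With only the libraries of each comparison fitted, 413 genes were called in MKO and 82 in WT. The plot of differences against adjusted p shows the calls on both sides with the largest changes named.

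**Figure D1:**
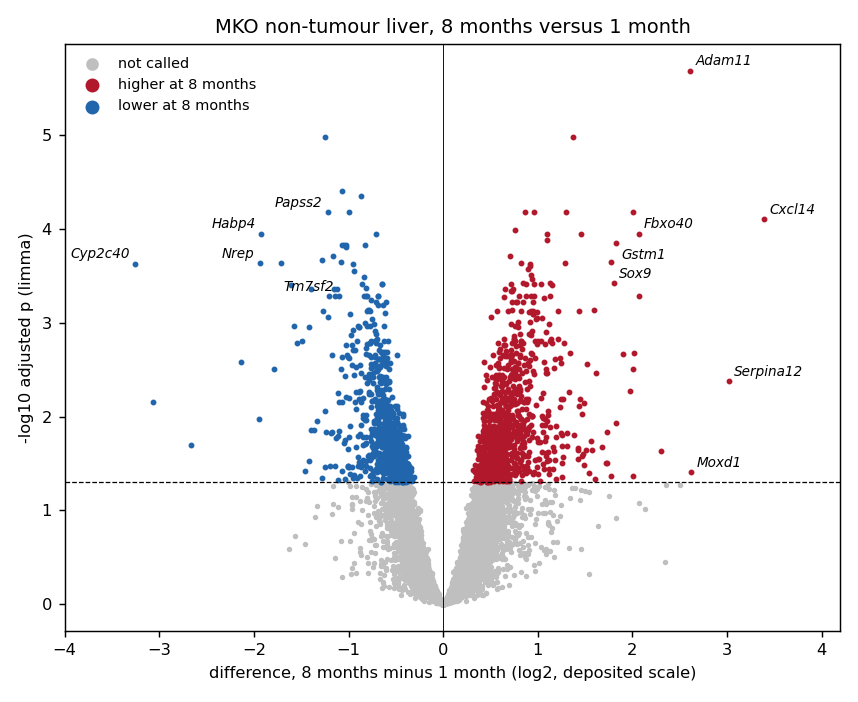
Difference between 8-month and 1-month MKO liver for each of 12966 genes (x axis, log2 on the deposited scale) against −log10 of the limma adjusted p (y axis); red genes were higher and blue genes lower at 8 months, and the dashed line marks an adjusted p of 0.05. Cxcl14 was the gene with the largest positive difference among the labelled genes and Cyp2c40 the one with the largest negative difference.

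The age difference in MKO livers moved with the GC content of the transcripts. The median GC content was 52.9% in genes that were higher, 46.0% in genes that were lower and 49.9% in all genes. Across 12858 genes the MKO difference correlated with GC content at 0.22, and the WT difference at -0.004; genes are not independent replicates. Within libraries, the deviation of genes from their mean correlated with GC content at 0.15, 0.12 and 0.10 in the 8-month MKO libraries, against -0.19, -0.12 and -0.08 in the 1-month MKO libraries. A spline of GC content and transcript length, subtracted from each library, left 712 higher and 758 lower genes (11.4% of those with a GC content), of which 1213 were also called in the same direction without it. Of the 452 genes called in every leave-one-out, 446 were also called after this correction, and what produced the relation with GC content was not tested.

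**Figure D2:**
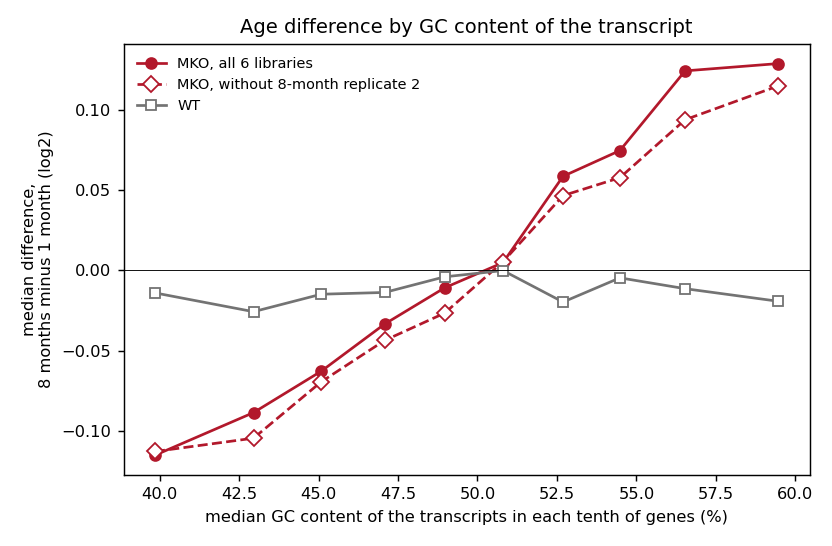
Median difference between 8 months and 1 month (y axis, log2) in 10 equal bins of genes ordered by GC content of the transcript (x axis, %), in MKO livers with all libraries (filled red), in MKO livers without the second 8-month library (open red) and in WT livers (grey). MKO medians ran between -0.12 in the lowest bin and 0.13 in the highest, and WT medians stayed between -0.03 and 0.00.

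Several of the genes with the largest rises had few reads in young liver. On GRCm38, the build of the submitters' processing notes, Cxcl14 lies at chr13:56288643-56296551, Adam11 at chr11:102761439-102780262, Sox9 at chr11:112782224-112787760 and Gstm1 at chr3:108012255-108017973. Adam11, a member of the ADAM family without protease activity, had 363, 521 and 162 normalised reads at 8 months, against 24.4, 35.9 and 35.2 at 1 month, and rose by 2.61 ± 0.29 (SE), adjusted p = 2.05e-06. The lowest 8-month library was above the highest 1-month library, and the spread among the 8-month libraries was many times that at 1 month. Cxcl14, a chemokine made by epithelial cells, had 277, 497 and 249 reads against 9.60, 9.85 and 14.7 and rose by 3.39 ± 0.50 (SE), adjusted p = 7.85e-05. In WT livers at 8 months Cxcl14 had 20.9, 223 and 19.4 reads, with the second library far above the other pair.

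Sox9, a transcription factor of bile duct cells and of hepatocytes under injury, had 243, 441 and 145 normalised reads at 8 months, against 39.9, 46.4 and 82.7 at 1 month, a rise of 1.81 ± 0.31 (SE), adjusted p = 0.000377. It was the single called gene among 24 measured markers of cholangiocytes and progenitors (4.17%, where 7.15% of all genes were higher). Fbxo40, an F-box protein known from muscle, had 58.04, 61.3 and 86.8 reads against 1.48, 4.92 and 3.20, a rise of 2.07 ± 0.32 (SE), adjusted p = 0.000113, and it was also called in WT livers (1.55, SE 0.32, adjusted p = 0.00749). Nox4, an NADPH oxidase that makes hydrogen peroxide, had 914, 511 and 498 reads against 272, 105 and 75.6, a rise of 2.02 ± 0.42 (SE), adjusted p = 0.0021. Its values at 3 months, 654, 911 and 847, were already in the 8-month range. Cyp46a1, the cholesterol 24-hydroxylase best known from brain, had 178, 147 and 179 reads against 31.02, 13.4 and 31.4 and rose by 2.01 ± 0.44 (SE), adjusted p = 0.00309. All of these genes were called in every leave-one-out.

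Ifi27l2b, an interferon-inducible gene, had 281, 715 and 285 reads against 49.5, 83.01 and 91.00 and rose by 2.07 ± 0.37 (SE), adjusted p = 0.000522. Cidec, a lipid droplet protein, had 200.1, 132 and 745 reads against 55.4, 31.7 and 26.3, a rise of 2.30 ± 0.69 (SE), adjusted p = 0.0232. The third 8-month library held most of the Cidec reads, and the adjusted p reached 0.144 when 1 library was left out. Nalf2, a gene named for sodium leak channels, had 84.9, 28.7 and 54.8 reads against 9.60, 0 and 0.64 and rose by 1.98 ± 0.47 (SE), adjusted p = 0.00538. Moxd1, a monooxygenase-like gene, had 339.6, 2.61 and 126 reads against 2.22, 0 and 0.64, a difference of 2.62 ± 0.87 (SE), adjusted p = 0.0395. The second 8-month library was close to the 1-month range, and the adjusted p reached 0.227 with 1 library left out. Moxd1 also rose in WT livers (3.91, SE 0.87, adjusted p = 0.0122).

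**Figure D3:**
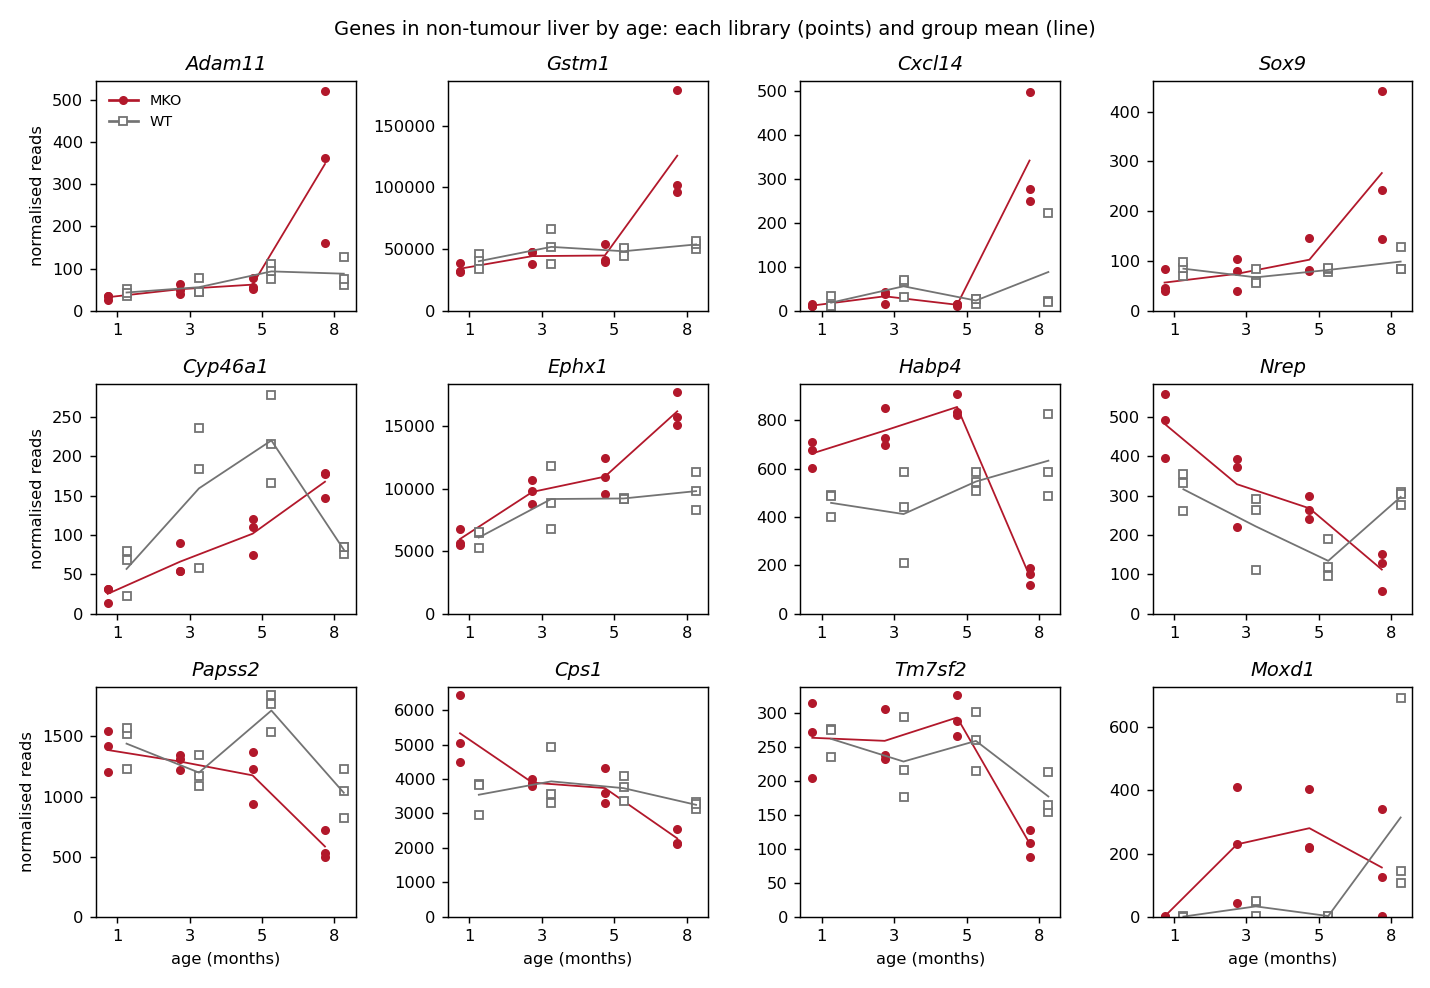
Normalised reads (y axis, linear and starting at 0) of 12 genes by age in months (x axis) in MKO (red circles) and WT (grey squares) non-tumour liver, with 1 point per library and lines through the group means of 3 libraries. Every 8-month MKO library was above all other libraries shown for Adam11, Gstm1, Cxcl14 and Ephx1, and below all of them for Habp4, Papss2, Cps1 and Tm7sf2.

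The largest falls included an RNA-binding protein, a cytokine receptor and an enzyme that activates fatty acids. On GRCm38 Habp4 lies at chr13:64161824-64186537, Lifr at chr15:7090614-7197489 and Papss2 at chr19:32595790-32667187. Habp4, an RNA-binding protein first described as binding hyaluronan, had 187, 118 and 164 normalised reads at 8 months, against 711, 601 and 677 at 1 month, a difference of -1.93 ± 0.30 (SE), adjusted p = 0.000113. Its values at 3 and 5 months, 696, 728 and 849 and then 911, 834 and 823, were not below those at 1 month. Nrep, a small protein linked to regeneration of neurons, had 128, 152 and 56.8 reads against 559, 493 and 397 and fell with a difference of -1.94 ± 0.32 (SE), adjusted p = 0.00023. Lifr, the receptor for leukaemia inhibitory factor, had 131, 113 and 119 reads against 418, 394 and 301, a difference of -1.42 ± 0.28 (SE), adjusted p = 0.00112. In each of these genes the groups did not overlap, and each was called in every leave-one-out.

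Hpgd, which inactivates prostaglandins, had 84.02, 51.5 and 63.96 normalised reads at 8 months against 290.2, 248 and 279 at 1 month, a difference of -1.71 ± 0.28 (SE), adjusted p = 0.00023. Aqp4, a water channel of pericentral hepatocytes in mice, had 0.87, 0 and 4.57 reads against 24.4, 29.5 and 29.5, a difference of -1.49 ± 0.30 (SE), adjusted p = 0.00158. Rhbg, an ammonium transporter of pericentral hepatocytes, had 81.4, 26.1 and 29.4 reads against 227, 121 and 122 (difference -1.42, SE 0.44, adjusted p = 0.0295), with an adjusted p of 0.136 without the second 8-month library. The ages did not overlap in Rhbg, but its call was lost without that library.

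Enzymes of cholesterol synthesis were among the genes that fell. Hepatocytes make cholesterol from acetyl-CoA by the mevalonate route, and the transcription factor SREBP2 raises most of its enzymes together when sterols are low. Of the list of cholesterol synthesis and transport, 1 higher and 8 lower of 28 measured were called, so that 28.6% fell where 6.02% of all genes did. The median difference of the list was -0.29, against 0.01 over all genes, and in WT livers 0 higher and 0 lower were called with a median of -0.02. Tm7sf2, a sterol reductase, had 127, 88.7 and 109 normalised reads at 8 months against 315, 204 and 273 at 1 month, a difference of -1.10 ± 0.20 (SE), adjusted p = 0.000522. Stard4, a carrier of cholesterol within cells, had 184, 183 and 193 reads against 446, 331 and 399.9 and fell with a difference of -0.97 ± 0.21 (SE), adjusted p = 0.0028. Both were called in every leave-one-out.

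The entry enzyme of the route was also lower, with less certainty. Hmgcs1, which makes HMG-CoA, had 63.2, 98.4 and 102 normalised reads at 8 months against 303, 186 and 393 at 1 month, a difference of -1.46 ± 0.48 (SE), adjusted p = 0.0384, and an adjusted p of 0.0873 without the second 8-month library. Sqle, the squalene epoxidase, had 19.9, 46.3 and 15.01 reads against 83.4, 57.7 and 103 (difference -1.10, SE 0.30, adjusted p = 0.0144). Msmo1, a sterol demethylase, had 709, 943 and 703 reads against 2037, 1375 and 1812 (difference -1.12, SE 0.31, adjusted p = 0.016). With 1 library left out the adjusted p reached 0.0672 for Sqle and 0.0767 for Msmo1. Mvd, Nsdhl and Dhcr7, further enzymes of the route, fell with differences of -1.01, -0.91 and -0.90, and their adjusted p reached 0.172, 0.174 and 0.252 in the same way. The member that rose was Abcg8, which forms with Abcg5 the exporter of sterols into bile; it had 1674, 1438 and 1548 reads against 681, 1265 and 644, a difference of 0.89 ± 0.22 (SE), adjusted p = 0.00686, with an adjusted p of up to 0.0516 when 1 library was left out. With the second 8-month library left out, the list held 1 higher and 5 lower, where 3.22% and 2.44% of all genes were called. Mvd and Nsdhl were among the genes no longer called. In WT livers at 8 months Hmgcs1 ranged widely, with 601, 107 and 180.2 reads, and no difference of the age effect between MKO and WT was called for a gene of the list.

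The promoters of 3 of these genes are shown because the genes fell together. The sequences are the 250 bases before the start site from RefSeq (GRCm38.p6), given 5′ to 3′ on the strand of the gene, with capitals marking the sterol regulatory element TCACNCCAC and the CCAAT box (which reads ATTGG on the other strand), both searched on both strands. Hmgcs1 lies on chromosome 13 (chr13:119690101-119690350, plus strand), Tm7sf2 on chromosome 19 (chr19:6067851-6068100, minus strand) and Nsdhl on chromosome X (chrX:72918271-72918520, plus strand).
Hmgcs1: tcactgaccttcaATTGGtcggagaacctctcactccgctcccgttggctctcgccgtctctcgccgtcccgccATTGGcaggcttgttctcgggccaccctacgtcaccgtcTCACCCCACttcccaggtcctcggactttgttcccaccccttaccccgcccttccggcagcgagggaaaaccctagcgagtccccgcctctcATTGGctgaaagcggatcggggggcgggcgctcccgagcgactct
Tm7sf2: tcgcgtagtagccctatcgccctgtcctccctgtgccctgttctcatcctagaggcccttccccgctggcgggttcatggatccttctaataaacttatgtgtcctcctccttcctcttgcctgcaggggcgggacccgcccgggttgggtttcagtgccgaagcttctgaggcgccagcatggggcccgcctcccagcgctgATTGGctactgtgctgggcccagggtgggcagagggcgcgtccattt
Nsdhl: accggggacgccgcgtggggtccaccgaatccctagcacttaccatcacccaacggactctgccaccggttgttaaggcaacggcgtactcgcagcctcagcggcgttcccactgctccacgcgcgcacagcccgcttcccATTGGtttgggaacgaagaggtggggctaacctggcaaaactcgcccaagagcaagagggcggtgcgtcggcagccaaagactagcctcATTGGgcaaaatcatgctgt
The Hmgcs1 window held 1 match to the sterol element, TCACCCCAC, and 3 CCAAT boxes, the Tm7sf2 window 1 CCAAT box and the Nsdhl window 2. Of the 8 list genes that fell, 6 had an entry in the table, and a CCAAT box lay in the window of all 6 and the sterol element in that of 1. Over the list, 16 of 20 genes with an entry held a CCAAT box, in 64.0% of 25 promoters, while 33.9% of all 32851 promoters of this length did. The sterol element stood in 1.05% of all promoters. These are matches of letters and not tests of binding.

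Of the list of fatty acid oxidation and targets of PPARα, the receptor that senses fatty acids, 3 higher and 7 lower of 35 measured were called. Thus 8.57% of the list rose and 20% fell, where 7.15% and 6.02% of all genes did. Without the second 8-month library 2 higher and 0 lower were called, where 3.22% and 2.44% of all genes were. Every falling call of the list thus needed that library. Acadl, the long-chain acyl-CoA dehydrogenase, had 529, 364 and 495 normalised reads at 8 months against 840.4, 721 and 714 at 1 month, a difference of -0.69 ± 0.17 (SE), adjusted p = 0.00774 and an adjusted p of 0.0808 without that library. Fabp1, the fatty acid carrier of hepatocytes, had 657, 269 and 1353 reads against 2270.1, 1329 and 1517, a difference of -1.37 ± 0.37 (SE), adjusted p = 0.0139, with the third 8-month library inside the 1-month range. Its difference was -0.80, with an adjusted p of 0.192, without the second 8-month library. The members that rose were Hadh, a dehydrogenase of the β-oxidation spiral, and the lipid droplet proteins Cidea and Cidec. Cidea also rose in WT livers (1.03, SE 0.26, adjusted p = 0.0335). Hadh had 3156, 3618 and 3032 reads against 2167, 1921 and 2018, a rise of 0.67 ± 0.18 (SE), adjusted p = 0.0127 and an adjusted p of 0.0732 without the second 8-month library. Acsl1, which couples long-chain fatty acids to CoA and was not on the list, fell with 2844, 1664 and 2317 reads against 8585, 6797 and 4831, a difference of -1.55 ± 0.32 (SE), adjusted p = 0.00163, and stayed called when any library was left out.

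Called genes of fatty acid elongation and desaturation lay in both directions. Elovl2, which elongates polyunsaturated fatty acids, had 662, 356 and 671 normalised reads at 8 months against 1405, 1559.5 and 1468 at 1 month and fell with a difference of -1.40 ± 0.25 (SE), adjusted p = 0.000437, and it also fell in WT livers (-0.95, SE 0.25, adjusted p = 0.0376). Fads2, the Δ6 desaturase, had 256, 143 and 209.5 reads against 402, 518 and 532 (difference -1.17, SE 0.32, adjusted p = 0.0144; adjusted p 0.099 without the second 8-month library). Scd1, which makes monounsaturated fatty acids, had 53011, 64143 and 90811 reads against 24709, 27061 and 33583, a rise of 1.26 ± 0.37 (SE), adjusted p = 0.0208 and an adjusted p of 0.058 without that library. Of the lipogenesis list 4 higher and 3 lower of 31 measured were called, or 12.9% and 9.68%, where 7.15% and 6.02% of all genes were. The list held 3 higher and 1 lower when the second 8-month library was left out, where 3.22% and 2.44% of all genes were called.

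Detoxification genes controlled by NRF2, the transcription factor that answers oxidants and electrophiles, included 4 that rose. Of the list 4 higher and 0 lower of 28 measured were called (14.3%, where 7.15% of all genes were higher), with a median difference of 0.55 against 0.01 over all genes. Gstm1, a glutathione transferase, had 102219, 179053 and 96136 normalised reads at 8 months against 32414, 31315 and 38389 at 1 month and rose by 1.83 ± 0.29 (SE), adjusted p = 0.000141. Ephx1, the microsomal epoxide hydrolase, had 17739.9, 15092 and 15727 reads against 6773, 5496 and 5655, a rise of 1.44 ± 0.27 (SE), adjusted p = 0.000744. Hmox1, which breaks down haem, had 65.8, 162 and 104 reads against 19.2, 40.1 and 39.7, a rise of 1.22 ± 0.24 (SE), adjusted p = 0.00148. These 3 genes were called in every leave-one-out, while Gsta1, another glutathione transferase with few reads (13.9, 54.8 and 23.5 against 4.43, 1.41 and 5.77), had an adjusted p of 0.225 without the second 8-month library. In WT livers 0 higher and 0 lower were called, and the difference between MKO and WT was not called for any of the 4, with Gstm1 at 1.40 ± 0.41 (SE), adjusted p = 0.0934. Glutathione transferases have close relatives in the genome, and how reads shared between them were counted is not given in the sources used here.

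Of 29 measured p53 targets 3 rose (10.3%, where 7.15% of all genes were higher), namely Ephx1, Cdkn1a and Gdf15. Cdkn1a, the cell cycle inhibitor p21, had 327, 460.3 and 527 normalised reads at 8 months against 120.4, 257 and 165 at 1 month, a rise of 1.19 ± 0.33 (SE), adjusted p = 0.0166, and Gdf15, a stress cytokine, had 37.2, 70.4 and 74.4 reads against 18.5, 24.6 and 23.7, a rise of 0.88 ± 0.29 (SE), adjusted p = 0.0399. Their adjusted p were 0.0672 and 0.15 without the second 8-month library. With the correction for GC content and length they were 0.0311 and 0.113. None of the 32 measured proliferation genes was called, where 13.2% of all genes were. Their summed reads were 1253, 1711 and 1088 at 8 months and 1056, 1387 and 1749.5 at 1 month, overlapping ranges.

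Cps1 and Arg1, enzymes of the urea cycle, and Agxt were lower at 8 months, and the call of Arg1 was lost without any 1 of 4 libraries. Cps1, which feeds ammonia into the urea cycle, had 2562, 2109.7 and 2154 normalised reads at 8 months against 4501, 6446 and 5031 at 1 month, a difference of -1.21 ± 0.22 (SE), adjusted p = 0.000522, and was called in every leave-one-out. Arg1, the last enzyme of the cycle, had 904, 874 and 1195 reads against 1519.8, 1982 and 1395 (difference -0.70, SE 0.23, adjusted p = 0.0371). Its adjusted p was 0.147 without the second 8-month library and reached 0.171 without the second 1-month library. Agxt, which clears glyoxylate, had 1993, 1713 and 2310.5 reads against 2489, 4933 and 4526 (difference -0.93, SE 0.23, adjusted p = 0.00707), with an adjusted p of 0.0577 without the second 1-month library. Among 27 measured periportal genes these 3 fell (11.1%, where 6.02% of all genes did). Serpina12, the adipokine vaspin, was the 1 that rose (3.7%, where 7.15% of all genes did), by 3.02 ± 0.69 (SE), adjusted p = 0.00419. Serpina12 had 4252, 3735 and 2149 reads at 8 months and 2210.3, 167 and 124 at 1 month, so that the first 1-month library lay inside the 8-month range.

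Papss2 and Papss1, the pair of enzymes that make the sulfate donor PAPS, moved in opposite directions. Papss2 had 534, 719.8 and 501 normalised reads at 8 months against 1201, 1418 and 1543 at 1 month, a difference of -1.22 ± 0.18 (SE), adjusted p = 6.63e-05. Papss1 had 321, 392 and 266 reads against 176, 146 and 140.3, a difference of 0.96 ± 0.22 (SE), adjusted p = 0.00355. Neither pair of groups overlapped, and both genes were called in every leave-one-out. Suox, which oxidises sulfite, and Sult1a1, a sulfotransferase, fell with differences of -0.99 and -0.69, and the adjusted p of Suox was 0.211 without the second 8-month library and that of Sult1a1 reached 0.105 with another library left out. Apob, the protein of very-low-density lipoprotein, fell as well, with 3652, 2466 and 3963 reads against 7518, 5775 and 5659.9 and a difference of -0.92 ± 0.20 (SE), adjusted p = 0.00294, while Hnf4a, a master factor of hepatocyte identity, rose with 4684, 3329 and 3678 reads against 2612, 2591 and 2730.0 and a difference of 0.54 ± 0.15 (SE), adjusted p = 0.0148. Hnf4a also rose in WT livers (0.62, SE 0.15, adjusted p = 0.0218), and its adjusted p in MKO was 0.098 without the first 8-month library.

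Part of the macrophage genes rose, and the second 8-month library had the highest sums. In bulk liver, more cells of a type and more RNA per cell cannot be told apart. Of 22 measured Kupffer cell genes 5 rose (22.7%, where 7.15% of all genes did), namely Vsig4, C1qb, Cfp, Cd68 and Hmox1. Of 32 genes of recruited and lipid-associated macrophages 6 rose (18.8%), namely Lgals3, Mmp12, Cd63, Tyrobp, Fcer1g and S100a11. Vsig4, a complement receptor of Kupffer cells, had 706, 1266 and 624 normalised reads at 8 months against 297, 442 and 413 at 1 month, a rise of 1.07 ± 0.35 (SE), adjusted p = 0.0364. Lgals3, galectin-3, had 165, 902 and 315 reads against 61.3, 119.6 and 142, a rise of 1.61 ± 0.55 (SE), adjusted p = 0.0461. Clec4f, a lectin that marks resident Kupffer cells in mice, was not called, with 1219.6, 1827 and 1168 reads against 867, 1352 and 1087.

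The summed reads of the Kupffer list were 10301, 17840.0 and 11413 at 8 months and 5856, 9725 and 8780.2 at 1 month, and those of the second macrophage list 9190.5, 15986 and 10283 and 7635, 9863 and 10356. Of the first list Hmox1 alone, and of the second none, was called without the second 8-month library (adjusted p 0.23 for Vsig4 and 0.329 for Lgals3). Of all genes 3.22% were higher without it. The correction for GC content and length left 3 genes of the first list and 4 of the second higher. After that correction 712 of the 12858 genes with a GC content were higher. At 3 and 5 months Vsig4 had 220.1, 202 and 289.7 and then 209, 388 and 200.3 reads. In WT livers none of these genes was called, and their medians were -0.35 for the Kupffer list and -0.27 for the second list. No difference of the age effect between MKO and WT was called in either list.

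Of 29 measured genes of sinusoidal endothelium 3 rose (10.3%, where 7.15% of all genes did). Tie1, an endothelial receptor kinase, had 527, 576 and 711 normalised reads at 8 months against 276, 391 and 315 at 1 month, a rise of 0.83 ± 0.19 (SE), adjusted p = 0.00345. Ramp2, which turns the calcitonin-like receptor into an adrenomedullin receptor, had 264, 376 and 529 reads against 154, 196 and 178, a rise of 0.99 ± 0.19 (SE), adjusted p = 0.000775. Gata4, the transcription factor that sets sinusoidal identity, had 352, 407 and 293 reads against 181, 144 and 215, a rise of 0.87 ± 0.21 (SE), adjusted p = 0.00649. These genes were called in every leave-one-out, and the summed reads of the list were 8958, 9686 and 10674 at 8 months and 7656, 7862 and 6791 at 1 month. In WT livers none was called.

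Of 26 measured genes of Met signalling and related receptor kinases 3 rose (11.5%, where 7.15% of all genes did) and none fell, with a median difference of -0.01. Fgfr4, the hepatocyte receptor for the bile acid signal FGF15, had 330.0, 268 and 264 normalised reads at 8 months against 145, 132 and 159.6 at 1 month, a rise of 0.86 ± 0.18 (SE), adjusted p = 0.0024. Grb2, the adaptor that links receptors to Ras, had 465, 592 and 559 reads against 339.7, 409 and 408, a rise of 0.45 ± 0.10 (SE), adjusted p = 0.00362. Mst1r, the receptor Ron and the closest relative of Met, had few reads, with 11.3, 9.78 and 1.31 reads against 0, 0.70 and 0, and its adjusted p was 0.123 without the second 8-month library. With the correction for GC content and length the adjusted p of Mst1r was 0.0554. Hgf, the ligand, had 6.93, 7.82 and 12.4 reads against 17.7, 23.9 and 11.5 and was not called.

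Of the interferon-stimulated genes 1 higher and 5 lower of 43 measured were called, and those that fell were Iigp1, Ifih1, Rsad2, Parp14 and Xaf1. Iigp1, an interferon-inducible GTPase, had 886, 1037 and 482 normalised reads at 8 months against 2372, 1414 and 1978 at 1 month, a difference of -1.27 ± 0.24 (SE), adjusted p = 0.00075. Irf9, the DNA-binding part of the interferon factor ISGF3, rose, with 946, 1079.6 and 922 reads against 682, 563 and 511 and a difference of 0.73 ± 0.17 (SE), adjusted p = 0.00574. In WT livers 0 higher and 5 lower were called, where 0.925% and 0.794% of all genes were. The list median was -0.57 in WT against -0.13 in MKO. The share of the list that fell in MKO, 11.6%, compares with 6.02% of all genes.

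Of the genes of matrix and stellate cells 1 higher and 2 lower of 39 measured were called, or 2.56% and 5.13%, where 7.15% and 6.02% of all genes were. Col3a1, a fibrillar collagen, had 6.06, 29.99 and 20.9 normalised reads at 8 months against 43.6, 59.1 and 77.5 at 1 month, a difference of -1.07 ± 0.26 (SE), adjusted p = 0.00697, and also fell in WT livers (-1.05, SE 0.26, adjusted p = 0.0297). Its adjusted p was 0.0621 without the first 8-month library. Mmp2, a gelatinase of stellate cells, fell with a difference of -0.85 and an adjusted p of up to 0.123 when 1 library was left out, and Col14a1, a collagen that coats fibrils, rose with a difference of 0.71, with an adjusted p of 0.22 without the second 8-month library. No gene was called among 24 measured B cell and immunoglobulin genes, 21 of T and NK cells and 11 of neutrophils. Of all genes 13.2% were called. The second 8-month library had the highest sum in all 3 lists, and for neutrophil genes the sums were 663, 5563 and 520.2 at 8 months and 258, 612 and 458 at 1 month.

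**Figure D4:**
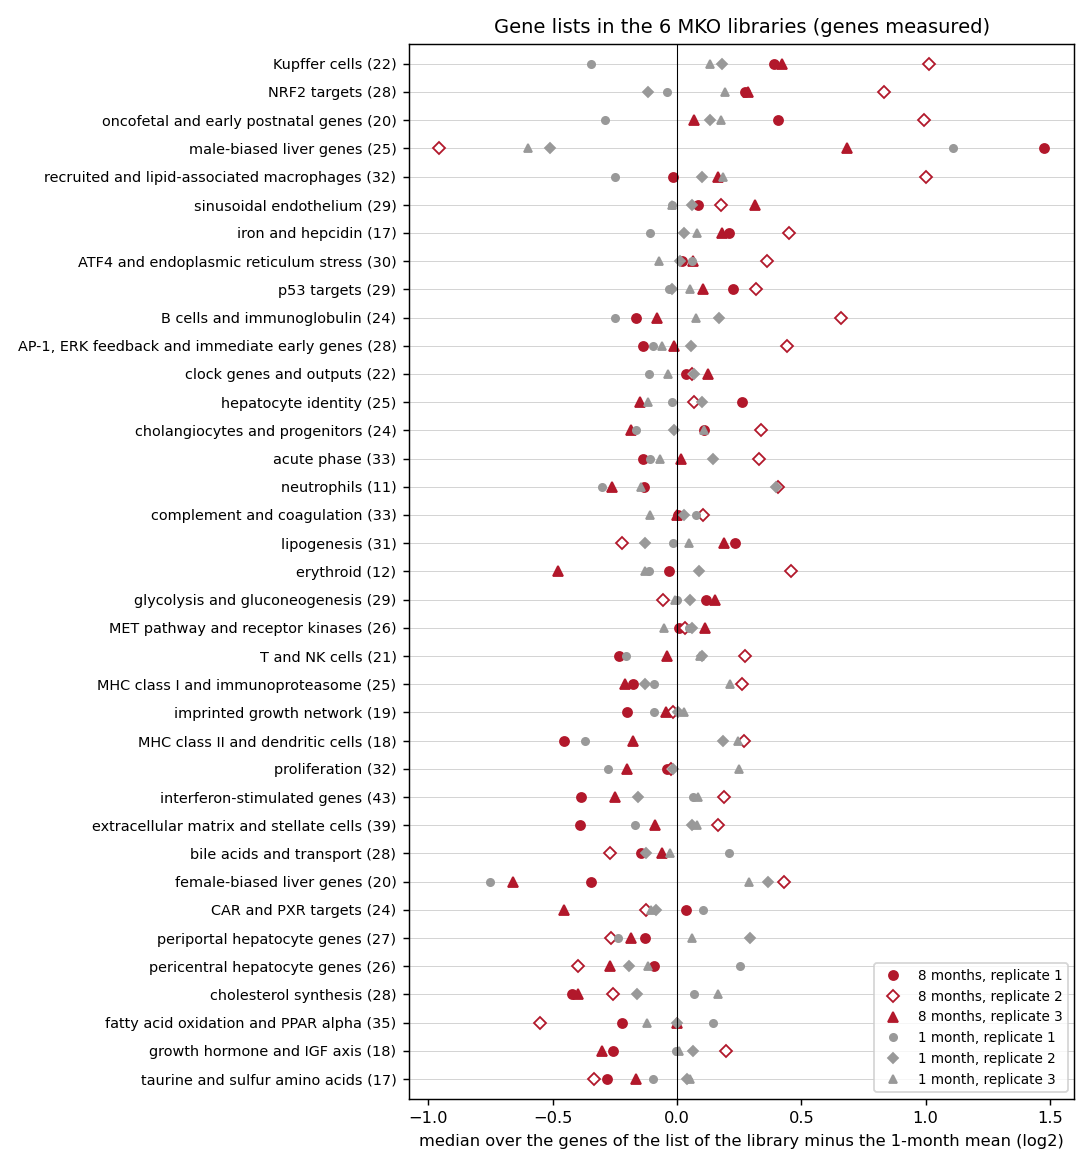
For each gene list with at least 10 measured genes (number in brackets), the median over its genes of the library value minus the 1-month mean (x axis, log2) in the 3 MKO 8-month libraries (red) and the 3 MKO 1-month libraries (grey). The 8-month libraries lay above all 1-month libraries for Kupffer cells and NRF2 targets and below all of them for cholesterol synthesis and for taurine and sulfur genes, and the second 8-month library (open diamonds) was the farthest in many lists.

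Sex-biased genes split the libraries within both ages. Mouse liver acquires male and female expression patterns after weaning under the pulses of growth hormone. The median of 25 male-biased genes, relative to the 1-month mean, was 1.48, -0.96 and 0.68 in the 8-month libraries and 1.11, -0.51 and -0.60 in the 1-month libraries (log2), so that the second 8-month library lay with the other two 1-month libraries, apart from the first. Mup9, a major urinary protein, had 239, 5.87 and 149 normalised reads at 8 months against 61.3, 2.81 and 2.56 at 1 month, and the difference of 1.64 ± 0.75 (SE), adjusted p = 0.146 became 2.64 with an adjusted p of 0.0345 without the second 8-month library. The Mup genes are near-identical copies, and Cyp2c40 and Cyp2c69 are close ones, so reads may have been split among them. Cyp2c40, a female-biased cytochrome P450, had 25.1, 181 and 7.18 reads against 423, 758 and 697, a difference of -3.26 ± 0.54 (SE), adjusted p = 0.000233, and fell in WT livers too (-2.51, SE 0.54, adjusted p = 0.0107). A1bg, another female-biased gene in mice, had 0.87, 0.65 and 0 reads against 2.95, 24.6 and 92.3, a difference of -1.61 ± 0.28 (SE), adjusted p = 0.000393. Of 20 listed female-biased genes measured 1 was higher (5%) and 3 lower (15%), where 7.15% and 6.02% of all genes were. The 1 that rose was Akr1c18, with 472, 1018 and 51.6 reads against 12.6, 85.8 and 131. Its difference was 2.01 ± 0.67 (SE), adjusted p = 0.0429, with an adjusted p of 0.33 without the second 8-month library. Of the 25 male-biased genes 2 were higher (8%) and 0 lower.

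Igf2 and Igf2bp3 fell, while Golm1 and Scd2, the other called members of 20 measured oncofetal and early postnatal genes, rose by 1.17 and 1.77 (adjusted p 0.332 and 0.276 without the second 8-month library). The calls made up 10% of the list higher and 10% lower, where 7.15% and 6.02% of all genes were called. Igf2, the fetal insulin-like growth factor, had 47.6, 37.2 and 27.4 normalised reads at 8 months against 36.9, 657 and 447 at 1 month, a difference of -2.14 ± 0.46 (SE), adjusted p = 0.00265, and the first 1-month library lay inside the 8-month range. Igf2bp3, a fetal RNA-binding protein, had 0.87, 11.1 and 0.65 reads against 15.5, 30.2 and 33.3, a difference of -1.18 ± 0.25 (SE), adjusted p = 0.00218, and it fell in WT livers too (-2.02, SE 0.25, adjusted p = 1.76e-05); the difference between the genotypes was not called (0.84, SE 0.35, adjusted p = 0.246). Afp and Gpc3, which adult liver shuts and tumours use again, had 31.2, 25.4 and 5.87 and 51.1, 41.7 and 3.26 reads at 8 months, against 3.69, 5.63 and 2.56 and 4.43, 2.81 and 1.92 at 1 month, and neither was called (0.142 and 0.082 as adjusted p). In MKO tumours of the same age the reads were 146, 58.05 and 167 for Afp and 643, 909.9 and 491 for Gpc3, above every non-tumour library given here.

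The age difference in MKO was set against that in WT, which shares no library with it. Of the MKO calls 5.39% were also called in the same direction in WT, and of the WT calls 41.3% were also called in MKO, which makes 92 genes (65 higher and 27 lower), with 3 called in opposite directions. Genes that rose in MKO had a median difference of 0.65 there and 0.21 in WT, and genes that fell had -0.60 in MKO and -0.12 in WT. Picking genes by their MKO call favours a larger difference in MKO. Genes picked by a rise in WT had 0.73 in WT and 0.49 in MKO. Those picked by a fall in WT had -0.75 in WT and -0.24 in MKO. The difference of the age effect between the genotypes was called for 61 genes (0.47% of those tested), 24 with a larger and 37 with a smaller value in MKO. Without the second 8-month MKO library 11 genes were called (0.0848%), and the count ran up to 125 when another of the 12 libraries was left out.

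Among the genes with the most positive difference of the age effect, Adam11 rose in MKO and was not called in WT, where the ages did not overlap either. Adam11 had 61.98, 126 and 74.96 reads in WT at 8 months and 52.5, 33.6 and 43.01 at 1 month, and MKO minus WT was 1.90 ± 0.42 (SE), adjusted p = 0.0232. Igsf8, an immunoglobulin superfamily protein, had 421, 871 and 319 reads in MKO at 8 months and 174, 193 and 238 at 1 month, while WT livers had 201, 225 and 232 and 387, 291 and 274, and MKO minus WT was 1.66 ± 0.36 (SE), adjusted p = 0.0218. The adjusted p of these genes were 0.12 and 0.118 without the second 8-month MKO library. Ackr1, a decoy receptor for chemokines, had 68.4, 54.8 and 72.4 reads in MKO at 8 months and 22.9, 23.9 and 27.6 at 1 month, against 20.9, 29.6 and 15.2 and 30.8, 69.5 and 51.03 in WT, and MKO minus WT was 1.60 ± 0.31 (SE), adjusted p = 0.0141. Ackr1 stayed called when any of the 12 libraries was left out. Ifi202b, an interferon-inducible gene, and Mrgpre, an orphan receptor, also belonged to them, with MKO minus WT at 1.80 ± 0.37 (SE), adjusted p = 0.0165, and 1.57 ± 0.34 (SE), adjusted p = 0.0212. For Igsf8 and Ackr1 part of the difference lay at 1 month, where every MKO library was below every WT library.

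Of the 6 genes with the most negative difference, Habp4 fell in MKO and had 587, 488 and 825 normalised reads in WT at 8 months and 399.7, 490.2 and 486 at 1 month, and MKO minus WT was -2.34 ± 0.42 (SE), adjusted p = 0.00898. Alas1, the first enzyme of haem synthesis, had 675, 715 and 672 reads in MKO at 8 months and 1914, 1578 and 1245 at 1 month, against 881, 1122 and 1732 and 645, 347 and 558 in WT, and MKO minus WT was -2.36 ± 0.52 (SE), adjusted p = 0.0232. Hspb8, a small heat-shock protein, had 129, 146 and 236 and 258, 287 and 275 in MKO against 358, 384 and 307 and 185, 119 and 141 in WT, with MKO minus WT at -1.76 ± 0.29 (SE), adjusted p = 0.0081. For Nrep MKO minus WT was -1.86 ± 0.45 (SE), adjusted p = 0.0481. Adhfe1, an iron-containing alcohol dehydrogenase of mitochondria, gave -1.54 ± 0.27 (SE), adjusted p = 0.00898, and Pdia3, a disulfide isomerase of the endoplasmic reticulum, gave -1.47 ± 0.31 (SE), adjusted p = 0.0165. Part of each difference lay at 1 month: Habp4, Alas1, Hspb8, Adhfe1 and Pdia3 were higher in every MKO library than in every WT library at that age. Habp4, Hspb8 and Adhfe1 stayed called when any of the 12 libraries was left out, and Alas1 and Pdia3 did not.

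**Figure D5:**
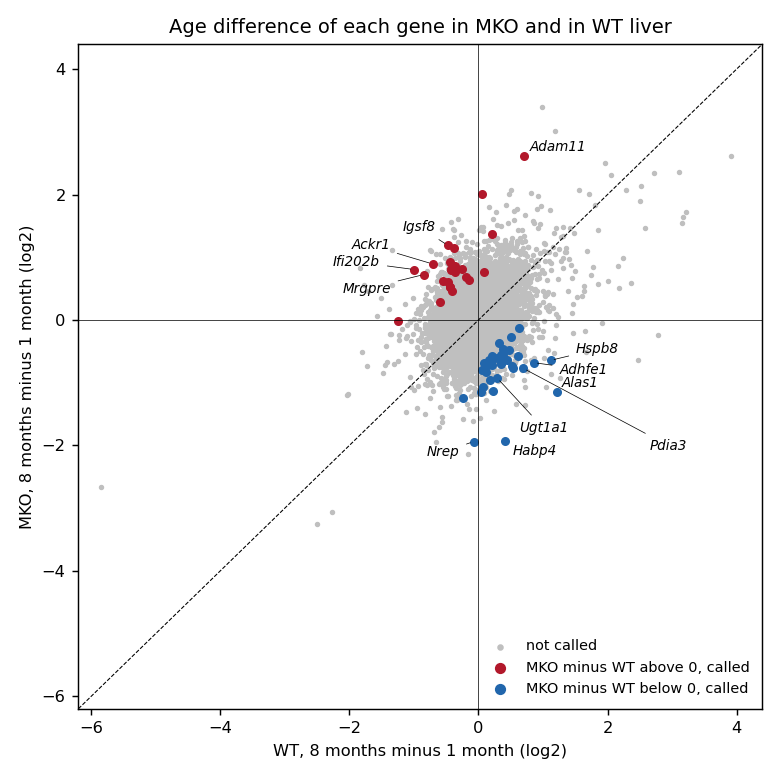
Difference between 8 months and 1 month in MKO livers (y axis, log2) against the same in WT livers (x axis, log2) for 12966 genes, with the 24 genes called for a larger value in MKO in red, the 37 called for a smaller value in blue and the line of equal differences dashed. Among the labelled genes Adam11 lay highest above the line, and Habp4 and Alas1 farthest below it.

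For the 1708 called genes the median step was largest in the last interval. Genes higher at 8 months had median differences of 0.18 between 3 months and 1 month, 0.12 between 5 and 3 months and 0.33 between 8 and 5 months, and genes lower at 8 months had -0.11, -0.12 and -0.37. The steps share libraries with each other and with the whole interval. The genes were selected on the 1-month and 8-month libraries, which enter the first and last steps and not the middle one. The last interval is also the longest, so the steps are not rates. At 3 months against 1 month 106 genes were called (0.818% of genes; 56 higher and 50 lower), and between 10 and 181 with any 1 of the 6 libraries left out. At 5 months against 3 months 0 genes were called by limma, with 789 at an unadjusted p below 0.05, and limma-voom on recovered reads called 0 as well. At 8 months against 5 months 842 genes were called (6.49%), of which 506 were higher and 336 lower, with 98 (0.756%) without the second 8-month library and 442 and 173 without the second or the third 5-month library.

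The first interval held large differences in genes that are known to change as young liver matures. Mup9 had 759, 366 and 1041 normalised reads at 3 months against 61.3, 2.81 and 2.56 at 1 month, a rise of 4.32 ± 0.75 (SE), adjusted p = 0.00354. Cyp2c69, a P450 with female-biased close copies, had 56.5, 76.6 and 36.5 reads at 3 months against 675, 2056 and 1960.3 at 1 month, with a difference of -4.15 ± 0.75 (SE), adjusted p = 0.00368. Mt1, a metallothionein, had 409.9, 257 and 198 reads at 3 months against 1303, 25614 and 4927 at 1 month, with a difference of -4.18 ± 0.79 (SE), adjusted p = 0.00486, and H19, the imprinted RNA that fetal liver transcribes, had 125, 83.2 and 48.3 reads against 245, 5439 and 4663, with a difference of -4.16 ± 0.98 (SE), adjusted p = 0.0329. H19 was not called between 8 months and 1 month, with 3263, 616 and 329 reads at 8 months and an overlap between the ages. With 1 library left out, the adjusted p of the 3-month difference reached 0.0492 for Mup9, 0.0566 for Cyp2c69, 0.138 for Mt1 and 0.266 for H19.

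In the last interval Cxcl14 had 277, 497 and 249 normalised reads at 8 months against 15.7, 14.2 and 9.84 at 5 months, a rise of 3.30 ± 0.50 (SE), adjusted p = 0.000246, and it stayed called in every leave-one-out. Lcn2, an acute-phase lipocalin, had 593, 5341 and 461 reads against 216, 163 and 131, a rise of 2.60 ± 0.79 (SE), adjusted p = 0.0412, and Cyp2a4, a female-biased P450, had 1655, 5087 and 313 reads against 161, 135 and 92.99, a rise of 3.22 ± 0.83 (SE), adjusted p = 0.0175. Mup1 had 179, 0.65 and 30.7 reads against 676, 478 and 577, with a difference of -3.35 ± 0.76 (SE), adjusted p = 0.0079. Without the second 8-month library the adjusted p were 0.379 for Lcn2, 0.203 for Cyp2a4 and 0.126 for Mup1.

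MKO tumours of the same age give a further point for the named genes. Ifi27l2b had 1176, 1412 and 1284 normalised reads in MKO tumours, above all 3 non-tumour MKO libraries at 8 months. Gstm1 had 213976, 189628 and 153238 reads and Cxcl14 1075, 528 and 319 there. Adam11, in contrast, had 56.9, 52.5 and 100.4 reads in MKO tumours, below the 363, 521 and 162 of the non-tumour libraries, and Ephx1 had 8347, 8329.6 and 14626, also below all 3 of them. Fbxo40 had 2.03, 1.84 and 44.7 reads and Cyp46a1 38.6, 26.3 and 125 in tumours. Whether tumour tissue contributed to the non-tumour samples was not tested.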

How the data were processed

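RNA of mouse liver was sequenced from 3′ ends, and the authors deposited 1 table of 12966 genes in 105 libraries as variance-stabilised values on the log2 scale. The submitters' processing notes name STAR 2.7.10a, HTSeq 2.0.2, DESeq2 1.32.0 and the builds GRCm38 and mm10. Whether strand was used in counting is not given in the sources used here. The deposited log2 values were inverted from their floor of 3.8289, which stands for 0 reads, to normalised reads and whole read counts, and 100.0% of values came out whole within 0.05 reads.

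Tests used limma 3.58.1 in R 4.3.3 on the deposited values of the 45 libraries of sequencing group 2, with 1 mean for each of 15 groups, a trended moderated variance (30 residual degrees of freedom) and Benjamini-Hochberg adjustment over 12966 genes. The 15 groups were the livers and tumours of WT, MKO and BKO. A minimum mean value of 3 removed 0 genes. The remaining steps used python 3.11.15, pandas 2.3.3 and numpy 2.4.6. Reads per library ranged from 6650086 to 20231121, and no pair of the 990 compared differed by as little as sampling noise. The limma fit of 8 months against 1 month in MKO was checked on simulated data, with independent noise of the same spread in every library. That check does not cover a library that stands apart or the relation with GC content.

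The genes named are Met, of the called genes whose groups did not overlap the 12 that rose most and the 12 that fell most, 6 in each direction for the difference between genotypes, 4 in each direction for each step between ages, and up to 4 called members of each of 41 gene lists, or up to 2 of the highest level where none was called. The members and lists were chosen with earlier results of these data known, and list members may be named whatever their call. Predicted genes were passed over, and some genes that the rule names are not reported here.

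Alternatives were a stricter filter, quantile normalisation, library weights, moderation without a trend, limma-voom on recovered reads, fits of fewer groups, a replicate block and each library left out. The correction for GC content and length, available for 12858 genes, was added after seeing the data, also together with leaving out the second 8-month library. Deviations of same-numbered libraries correlated at 0.35, 0.16 and -0.22 between MKO at 8 months and at 1 month. Between MKO and WT non-tumour liver at 8 months the correlations were 0.12, 0.30 and 0.17. Deviations within a group are tied to each other through the group mean, so these values do not decide whether libraries were paired. The labels state no pairing, and pairing was not tested. Promoter sequences came from RefSeq.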

Additional observations from a re-analysis of the deposited data

Results flagged for a closer look

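The age effect differed between MKO and WT for 61 genes by the interaction contrast in limma, and 12 of the named genes were among them. On the log2 scale, as MKO minus WT, the difference was 1.90 for Adam11, 1.80 for Ifi202b, 1.66 for Igsf8, 1.60 for Ackr1 and 1.57 for Mrgpre. It was -2.36 for Alas1, -2.34 for Habp4, -1.86 for Nrep, -1.76 for Hspb8, -1.54 for Adhfe1, -1.47 for Pdia3 and -1.22 for Ugt1a1. Ugt1a1, the enzyme that conjugates bilirubin, had 12.99, 13.04 and 13.1 normalised reads in MKO at 8 months and 48.00, 45.7 and 35.2 at 1 month, against 20.9, 28.8 and 19.4 and 13.1, 19.8 and 13.1 in WT. It shares its last exons with the other Ugt1a genes, so that reads of 3′ ends may not tell them apart. Without the second 8-month MKO library the calls of Habp4, Ifi202b, Ackr1, Hspb8 and Adhfe1 held, and those of the other 7 were lost.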

How the results depend on the processing

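The comparison of 8 months with 1 month in MKO called 1708 genes, and 413 when only its own 6 libraries were fitted, 563 with the correction for GC content and length and the second 8-month library left out, and 735 to 1503 with 1 library left out. The WT comparison called 223 genes, 424 in a fit of the MKO and WT non-tumour groups, 840 with library weights, 82 with only its own groups and 37 to 146 with 1 library left out. The difference between genotypes called 61 genes, 9 with the correction and the library left out, 182 in the fit of the non-tumour groups, 224 with weights, 12 with only its own groups and 11 to 125 with 1 library left out. At 3 months against 1 month 106 genes were called, 239 in the fit of the non-tumour groups, 688 with weights, 25 by limma-voom, 30 with only its own groups and 10 to 181 with 1 library left out. At 5 months against 3 months 0 genes were called, and 0 to 1 with 1 library left out. At 8 months against 5 months 842 genes were called, 85 with the correction and the library left out, 1344 in the fit of the non-tumour groups, 63 with only its own groups and 98 to 1115 with 1 library left out. The causes were not tested. With the replicate block the counts in the same order were 1729, 191, 75, 90, 0 and 903, and the block moved none by over 1.5 times.

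No named gene that was called changed sign under any alternative run. Among those not called, Xbp1 became -0.053 with the correction and the second 8-month library left out. Thy1 became -0.070 with the correction, -0.36 with both, -0.077 with weights, and ranged between -0.24 and 0.44 with 1 library left out. ND4 became -0.18 after quantile normalisation. Cela1 became -0.091 with the correction, -0.013 with both, -0.039 after quantile normalisation, and ranged between -0.12 and 0.15 with 1 library left out. The cause was not tested. With 3 libraries a group, genes of few reads give differences that the deposited scale compresses.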

Other observations

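Of the iron list 4 higher and 1 lower of 17 measured were called, or 23.5% and 5.88%, where 7.15% and 6.02% of all genes were. With the correction for GC content and length 2 higher and 2 lower were called, where 11.4% of genes with a GC content were. Cp, ceruloplasmin, which oxidises iron for export, had 30180.4, 55707 and 24754 normalised reads at 8 months against 16635, 16084 and 14753 at 1 month, a rise of 1.13 ± 0.23 (SE), adjusted p = 0.00158, and it was called in every leave-one-out. Tfr2, a sensor of transferrin, had 1885, 1846 and 2627 reads against 1478, 1444 and 1232, a rise of 0.59 ± 0.18 (SE), adjusted p = 0.0226 and an adjusted p of up to 0.134 with 1 library left out. Hamp2, a hepcidin relative, had 1150.3, 513 and 317 reads against 1071, 5968 and 8480.3, a difference of -2.67 ± 0.77 (SE), adjusted p = 0.0201, and an adjusted p of 0.075 without the second 8-month library. Hamp2 also fell in WT livers (-5.85, SE 0.77, adjusted p = 4.2e-05). MKO minus WT was not called for it (3.18, SE 1.09, adjusted p = 0.148). Of the acute phase list 2 higher and 1 lower of 33 measured were called (6.06% and 3.03%), and of complement and coagulation 3 higher and 0 lower of 33 measured (9.09% higher), shares near or below those of all genes. C6, a part of the membrane attack complex, had 2948, 1921 and 2761 reads against 2140.1, 627 and 610.1, a rise of 1.39 ± 0.38 (SE), adjusted p = 0.0156. The first 1-month library lay above the second 8-month library, the adjusted p reached 0.0983 with 1 library left out, and the WT difference was 1.17 ± 0.38 (SE), adjusted p = 0.107. C1s1, a protease of the first complement component, had 1028, 1215 and 931 reads against 781, 539.5 and 537, a rise of 0.76 ± 0.17 (SE), adjusted p = 0.00331.

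Of glycolysis and gluconeogenesis 4 higher and 1 lower of 29 measured were called, or 13.8% and 3.45%, where 7.15% and 6.02% of all genes were. Without the second 8-month library 1 higher and 0 lower were called, where 3.22% and 2.44% of all genes were. The correction for GC content and length also left 1 higher and 0 lower, where 11.4% of genes with a GC content were called. Pkm, the pyruvate kinase of most tissues outside liver, had 193, 410.1 and 418 normalised reads at 8 months against 70.2, 147 and 190.3 at 1 month, a rise of 1.19 ± 0.37 (SE), adjusted p = 0.0288 and an adjusted p of 0.132 without the second 8-month library. With the correction the adjusted p of Pkm was 0.0548. Of MHC class I and the immunoproteasome 3 higher and 1 lower of 25 measured were called, or 12% and 4%, where 7.15% and 6.02% of all genes were. With the correction for GC content and length 1 higher and 2 lower were called. Psme1 and Psme2, the subunits of the PA28 activator of the proteasome, moved in opposite directions: Psme1 had 3553, 4442 and 5724 reads against 2581, 2451 and 3197, a difference of 0.71 ± 0.15 (SE), adjusted p = 0.00255. Psme2 had 83.2, 73.7 and 55.5 reads against 111, 94.96 and 139.7, a difference of -0.55 ± 0.14 (SE), adjusted p = 0.00956 and an adjusted p of up to 0.0714 with 1 library left out.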
